A study of Mus musculus with 4 samples.

Results

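The genes described here are 38 genes of protein folding, stress signalling, degradation and translocation in the endoplasmic reticulum (ER), compared between the CD8α+ and the CD8α− dendritic cells of mouse spleen. The members were taken from a list of gene symbols, through the probe sets that the array's annotation assigns to a single gene symbol. A probe set is the group of short oligonucleotides on the array that measures 1 transcript. Of the 38 genes, 37 had such a probe set, 98 probe sets in all, and 36 were bright enough to be tested among 10532 genes. Ero1l is named Ero1a in that annotation and is called Ero1a here. The protein disulfide isomerase gene Pdia4 was too dim to be tested. Its 2 probe sets gave normalized signals of 24.0, 25.4, 1.39 and 5.71 and of 20.2, 30.4, 15.9 and 19.2 on the 2 CD8α+ and then the 2 CD8α− arrays. Sec61g, the gamma subunit of the translocation channel, is read only by a probe set that it shares with other genes, and no value is given for it.

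Secreted and membrane proteins enter the ER through the Sec61 channel, are glycosylated, fold with the help of chaperones such as BiP (Hspa5) and calreticulin (Calr), and form disulfide bonds with the help of protein disulfide isomerases. Proteins that fail to fold are moved back to the cytosol and destroyed by the proteasome, which is called ER-associated degradation. When unfolded proteins accumulate, the sensors IRE1 (Ern1), PERK (Eif2ak3) and ATF6 start the unfolded protein response: IRE1 splices Xbp1 mRNA into the form that encodes an active transcription factor, PERK slows translation and favours Atf4, and ATF6 is cut to release its own transcription factor. In dendritic cells the same machinery assembles the peptide-loaded MHC class I molecule. CD8α+ dendritic cells, the type 1 conventional lineage (cDC1), are known for cross-presentation, the display of captured antigen on MHC class I, and for an IRE1 branch that is active without added stress.

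Both groups were spleen dendritic cells of C57BL/6 mice, with no other genotype, agent or age in the labels: 2 arrays of CD8α+ cells and 2 of CD8α− cells. The sources used here do not say how the cells were isolated. Nor do the labels say whether the 2 samples of a group came from separate mice, so the p-values measure only the spread between these arrays, which may be technical. On the label check, the Cd8a probe set gave normalized signals of 2014 and 2335 on the CD8α+ arrays and of 15.2 and 27.0, not above background, on the CD8α− arrays, a difference of at least 69.4-fold (adjusted p = 0.0742, limma). The CD8α− array of replicate 2 stood apart. Its Gapdh 3′ to 5′ signal ratio, a measure of RNA or labelling quality, was 10.7 against 1.53, 1.56 and 2.02 on the others, while its Actb ratio was 0.759 against 1.62 to 1.69. Over all genes tested, this array correlated with CD8α− replicate 1 at r = 0.854, and the CD8α+ arrays with each other at r = 0.962. The number of arrays limits the precision of every result below.

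Several of these genes are known targets of ATF6 and XBP1 through the ER stress response element (ERSE), and the copies found directly upstream of the genes are shown because the results below are later read by them. The motif searched was CCAAT, any 9 bases, then CCACG, on both strands in the 250 bases before each gene's start, from RefSeq on build GRCm38.p6. Such a window was at hand for 32 of the 38 genes, and 8 of them (25%) held the motif, against 37 of 32851 windows of all genes (0.113%). The matches are written 5′ to 3′ on the strand that reads CCAAT first, with the fixed bases in capitals.
Hspa5, chr2:34772025-34772043, same strand as the gene, from 65 bases upstream: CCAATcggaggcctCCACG
Hsp90b1, chr10:86705638-86705656, same strand, from 212 bases upstream: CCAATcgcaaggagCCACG
Hsp90b1, chr10:86705533-86705551, opposite strand, from 107 bases upstream: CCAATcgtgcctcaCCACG
Calr, chr8:84847075-84847093, opposite strand, from 162 bases upstream: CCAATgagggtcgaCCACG
Canx, chr11:50325800-50325818, same strand, from 145 bases upstream: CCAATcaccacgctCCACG
Creld2, chr15:88819520-88819538, opposite strand, from 126 bases upstream: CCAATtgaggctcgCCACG
Pdia6, chr12:17266491-17266509, same strand, from 98 bases upstream: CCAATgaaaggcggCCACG
Syvn1, chr19:6046532-6046550, same strand, from 44 bases upstream: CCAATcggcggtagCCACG
Derl3, chr10:75893242-75893260, opposite strand, from 156 bases upstream: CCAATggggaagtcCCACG

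The whole window of 250 bases is given for the best known target and for the chaperone and the translocon gene whose signals differed most, on the gene's own strand. Capitals mark the ERSE, which reads CGTGG to ATTGG where it lies on the opposite strand.
Hspa5, chr2:34771840-34772089, plus strand: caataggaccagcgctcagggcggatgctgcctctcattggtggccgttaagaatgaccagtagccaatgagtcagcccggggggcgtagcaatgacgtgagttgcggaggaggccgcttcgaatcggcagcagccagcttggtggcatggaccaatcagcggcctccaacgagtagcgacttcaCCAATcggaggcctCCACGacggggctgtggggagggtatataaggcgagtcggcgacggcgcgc
Calr, chr8:84846932-84847181, minus strand: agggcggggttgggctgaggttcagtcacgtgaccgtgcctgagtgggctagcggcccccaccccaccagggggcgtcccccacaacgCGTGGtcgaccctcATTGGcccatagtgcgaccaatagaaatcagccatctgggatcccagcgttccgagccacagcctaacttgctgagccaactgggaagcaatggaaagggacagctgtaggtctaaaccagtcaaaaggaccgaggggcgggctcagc
Sec63, chr10:42761246-42761495, plus strand, with no match: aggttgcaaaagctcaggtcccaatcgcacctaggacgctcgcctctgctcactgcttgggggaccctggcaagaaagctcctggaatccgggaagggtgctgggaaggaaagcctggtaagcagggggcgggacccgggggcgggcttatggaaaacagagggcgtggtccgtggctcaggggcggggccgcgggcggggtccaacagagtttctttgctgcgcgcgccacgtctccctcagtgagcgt
The related motif ERSE-II, which is ATTGG, any 1 base, then CCACG on either strand, was found upstream of 1 of the 32 genes, Herpud1, at chr8:94386377-94386387 on the gene's strand, against 10 of all windows (0.0304%).
Herpud1: ATTGGgCCACG
A match is a run of letters and no measure of binding, and a window without one shows only that these letters are not in it.

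None of the 36 genes passed an adjusted p of 0.05 (limma, Benjamini-Hochberg over 10532 genes), and neither did any other gene of the table (0%). The lowest adjusted p among them was 0.106, for Sec63. At an unadjusted p under 0.05, 4 genes were higher in CD8α+ cells (11.1%), Sec63, Calr, Ssr1 and Syvn1, against 7.56% of all genes tested, and 1 was lower (2.78%), Ddit3, against 9.39%. The signals of both CD8α+ arrays lay above those of both CD8α− arrays for 19 of the 36 genes (52.8%), against 25.6% of all genes, and below them for 3 (8.33%), against 28.3%. The difference, CD8α+ minus CD8α− on the log2 scale, was above 0 for 27 genes (75%), against 48.9% of all genes, and had a median of 0.45 over the 36, against -0.02 over all genes. On the scale as deposited, where the median of all genes was 0.67, the members' unadjusted calls were 13 higher and 0 lower, and those of all genes 1182 higher (11.3%) and 251 lower in place of 796 and 989. With each array centred on its median, where the median of all genes was 0.69, they were 26 higher and 0 lower, beside 3215 (30.6%) and 480 over all genes, and 2 members (Sec63 and Calr) were among the 503 genes (4.79%) past the adjusted threshold. Scaled to the trimmed mean, where it was -0.18, they were 5 and 0, beside 681 (6.44%) and 1835, and 152 genes (1.44%), with 0 members, passed the adjusted threshold. Relative to these medians, the members' median was 0.71, 0.70 and 0.72. Unfiltered, 4 members were higher (6.91% of all genes), with the stricter filter 4 (8.99%), with a floor at the highest Bacillus control 5 (8.87%), with an intensity trend 7 (8.2%) and with the mean of the probe sets 7 (9.43%). The stricter filter passed Sec63 and 157 genes in all (2.54%) after adjustment, and the trend 0 members and 85 genes (0.807%). Without CD8α− replicate 1 there were 9 higher (23.6% of all genes) and 4 lower unadjusted calls among the members, with 4 genes past the adjusted threshold (Sec63, Canx, Ssr1 and, lower, Eif2ak3). The same threshold was then passed by 2057 genes of the table (19.5%). Without CD8α− replicate 2 there were 14 (17.1%) and 3, without CD8α+ replicate 1 there were 1 (2.25%) and 0, and without CD8α+ replicate 2 there were 2 (2.27%) and 0. In these bulk samples, fewer cells of a type and less RNA per cell cannot be told apart.

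**Figure D1:**
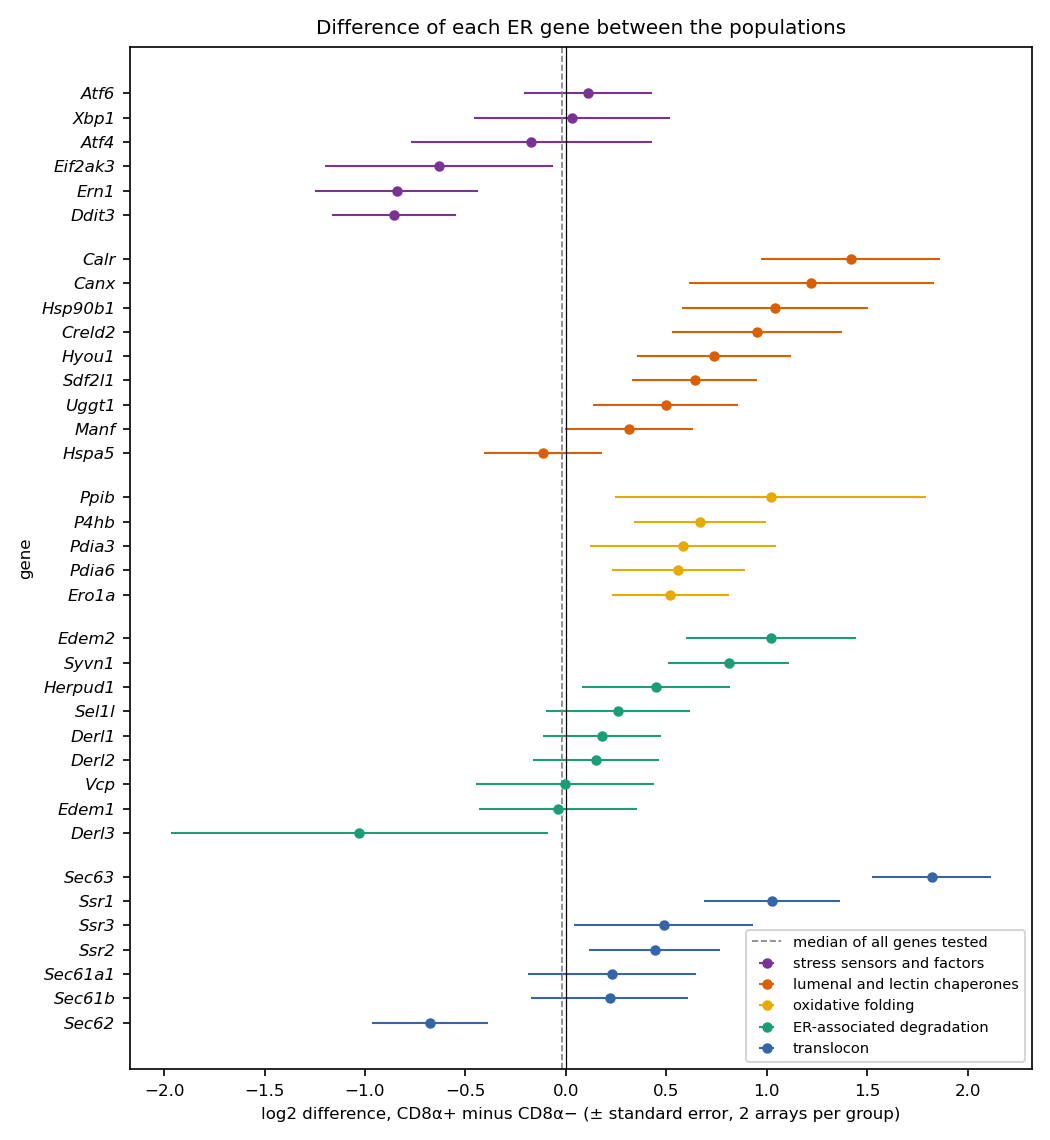
Log2 difference between CD8α+ and CD8α− cells for the 36 tested ER genes, grouped and coloured by role, with bars for the standard error of the fit (2 arrays per group) and a dashed line at the median of all genes tested. The chaperones other than Hspa5, the oxidative folding genes and the translocon genes other than Sec62 lie to the right of the line, and the stress sensors and factors lie on both sides of it, from -0.86 to 0.11.

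The stress sensors and their transcription factors had a difference below 0 in 4 of 6 genes. Of the 6, 0 were higher (against 7.56% of all genes) and 1 was lower (against 9.39%) at an unadjusted p under 0.05. Their median difference was -0.40, from -0.86 to 0.11. Relative to the median of all genes it was -0.38, and -0.13, -0.09 and -0.15 on the deposited, trimmed mean and median centred scales, where 3 of the 6 lay above 0. Ddit3 encodes CHOP, the factor that the PERK branch induces late in the response. Its normalized signals were 209 and 246 on the CD8α+ arrays and 376 and 448 on the CD8α− arrays, so the groups did not overlap. It was 1.81-fold lower in CD8α+ cells (difference -0.86 ± 0.31 SE, n = 2 arrays a group, adjusted p = 0.285, limma). That unadjusted call was lost without CD8α+ replicate 1 (difference -0.74), without CD8α+ replicate 2 (-0.97) and with the mean of its probe sets (-0.68). It was also lost on the 3 other scales, where the difference relative to all genes was -0.51 to -0.56.

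Ern1, the gene of the sensor IRE1, gave 121 and 92.5 on the CD8α+ arrays against 145 and 247 on the CD8α− arrays. The groups did not overlap, but the CD8α− arrays differed widely (difference -0.84 ± 0.41, adjusted p = 0.376, limma). A pair of further probe sets of Ern1 were tested, and over all of them the difference ran from -1.97 to 0.04. The lowest came from a dim set with 13.2 and 13.8 on the CD8α+ arrays, not above background, so its size is not exact. That set gave 44.4 and 62.9 on the CD8α− arrays. With the mean of its probe sets, Ern1 was lower in CD8α+ cells (-0.925, unadjusted p = 0.0439, limma), where 9.61% of all genes were called lower. Eif2ak3, the gene of PERK, was alike on 3 arrays, at 152 and 159 in CD8α+ cells and 145 on CD8α− replicate 1, and stood at 399 on CD8α− replicate 2 (-0.63 ± 0.57, adjusted p = 0.589). The difference against CD8α− replicate 1 alone was 0.10, and against replicate 2 alone -1.36.

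Xbp1, the target of IRE1 splicing, had 541 and 441 on the CD8α+ arrays, between the 322 and 712 of the CD8α− arrays. Its difference was among the smallest of the genes measured (0.03 ± 0.49, adjusted p = 0.981), and its groups overlapped. The signal of a probe set gives no measure of splicing. Its 4 tested probe sets differed in sign, from -0.33 to 1.06. The highest value came from a set with 400 and 379 on the CD8α+ arrays and 251 and 140 on the CD8α− arrays. Atf6 stood at 383 and 457 against 434 and 346 (0.11 ± 0.32, adjusted p = 0.872). Atf4, whose product is made when PERK slows translation, stood at 1362 and 1395 against 2684 and 898 (-0.17 ± 0.60, adjusted p = 0.895). In both, at least 1 of the CD8α+ arrays fell between the CD8α− arrays, and for Atf4 the CD8α+ arrays lay close together. Atf4 lay above the median of all genes on each of the 3 other scales, by 0.09 to 0.14.

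Among the 9 lumenal and lectin chaperones, 8 had both CD8α+ arrays above both CD8α− arrays, and 1 of these, Calr, passed the unadjusted threshold. Of all genes, 25.6% were apart in this way, and 7.56% passed that threshold as higher and 9.39% as lower. The counts for the other roles are to be read against the same shares. The median difference was 0.74, from -0.11 to 1.42. Calreticulin holds newly made glycoproteins, MHC class I among them, through their trimmed glycan. The signals of Calr were 3748 and 2016 on the CD8α+ arrays and 864 and 1225 on the CD8α− arrays. Both CD8α+ values were higher than both CD8α− values, 2.67-fold on average, although the CD8α+ arrays themselves were far apart (1.42 ± 0.45, adjusted p = 0.243, limma). The unadjusted call was lost without CD8α+ replicate 1 (difference 0.97), without CD8α− replicate 1 (1.17), without CD8α− replicate 2 (1.67) and with no filter (1.42, with more genes in the fit). All 3 tested probe sets of Calr had a difference above 0, from 1.42 to 2.48.

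Calnexin (Canx), the membrane-bound partner of calreticulin, gave 1790 and 1765 against 1333 and 435. All of its 3 tested probe sets lay above 0, and the size of the difference rested on CD8α− replicate 2 (1.22 ± 0.61, adjusted p = 0.388), since it was 0.42 against replicate 1 alone and 2.03 against replicate 2 alone. Hsp90b1, the gene of the chaperone GRP94, gave 1445 and 1499 against 491 and 1041. Here the lower value was that of CD8α− replicate 1 (1.04 ± 0.46, adjusted p = 0.35). Creld2, an ER protein induced by stress, stood at 444 and 470 against 171 and 327 (0.95 ± 0.42, adjusted p = 0.353). Hyou1, the nucleotide exchange factor of BiP, stood at 433 and 357 against 184 and 302 (0.74 ± 0.38, adjusted p = 0.403). Both repeat the order of Hsp90b1, with the CD8α+ arrays highest and CD8α− replicate 1 lowest. This order belongs to the probe sets shown: in the second tested probe set, CD8α− replicate 2 was lowest for Hsp90b1 (482 and 198 on the CD8α− arrays) and for Hyou1 (36.7 and 23.0, the latter not above background). Sdf2l1, a component of BiP's co-chaperone complexes, had a difference of 0.64 ± 0.31, and Uggt1, which reglucosylates misfolded glycoproteins, one of 0.50 ± 0.36. Manf, a small secreted ER protein, had the smallest difference of the 8 (0.31 ± 0.32).

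Hspa5, whose protein BiP is the main Hsp70 chaperone of the ER, was the exception among the chaperones. It stood at 4082 and 3791 on the CD8α+ arrays and at 4042 and 4487 on the CD8α− arrays, so the groups overlapped (-0.11 ± 0.29, adjusted p = 0.857). Its second tested probe set gave 3683 and 3641 against 3033 and 826, a difference of 1.21. With the mean of its probe sets in place of the brightest, the difference of Hspa5 was 0.55.

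All 5 tested genes of oxidative folding had a difference above 0, from 0.52 to 1.02 with a median of 0.58, and 0 of them passed the unadjusted threshold. In 4 the groups did not overlap, with both CD8α+ arrays higher. Pdia3 encodes ERp57, the isomerase of the MHC class I peptide-loading complex. It gave 1633 and 1544 on the CD8α+ arrays and 728 and 1543 on the CD8α− arrays. The second CD8α− value was level with the lower CD8α+ one, and the difference rested on CD8α− replicate 1 (0.58 ± 0.46, adjusted p = 0.546). P4hb, protein disulfide isomerase itself, stood at 3195 and 2987 against 1645 and 2297 (0.67 ± 0.33, adjusted p = 0.385). Pdia6 stood at 581 and 564 against 327 and 461 (0.56 ± 0.33, adjusted p = 0.446). Ero1a, the oxidase that recharges the isomerases, stood at 668 and 635 against 431 and 478 (0.52 ± 0.29, adjusted p = 0.427). In these 3 the CD8α+ arrays lay within a narrow range above both CD8α− arrays. The cyclophilin Ppib, a prolyl isomerase, stood at 1131 and 1607 against 1376 and 322. Its groups overlapped, and its difference of 1.02 ± 0.78 (adjusted p = 0.531) was -0.03 against CD8α− replicate 1 alone and 2.07 against replicate 2 alone.

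The 9 genes of ER-associated degradation were mixed, with differences from -1.03 to 1.02 around a median of 0.18. At an unadjusted p under 0.05, 1 was higher and 0 were lower, and both CD8α+ arrays lay above both CD8α− arrays in 4. Syvn1, the ubiquitin ligase HRD1, gave 170 and 177 on the CD8α+ arrays and 109 and 90.2 on the CD8α− arrays. The groups were well apart relative to the gap within each, and Syvn1 was 1.75-fold higher in CD8α+ cells (0.81 ± 0.30, adjusted p = 0.291, limma). It was no longer called without CD8α+ replicate 1 (difference 0.84), without CD8α+ replicate 2 (0.78) or with the mean of its probe sets (0.66). Sel1l, the adaptor of HRD1, stood at 1111 and 1048 against 721 and 1128, with overlapping groups (0.26 ± 0.36).

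Edem2, which trims mannose from misfolded glycoproteins, stood at 108 and 86.8 against 35.1 and 64.5 (1.02 ± 0.42, adjusted p = 0.324). Its relative Edem1 was not apart in the probe set that stands for it, at 260 and 268 against 359 and 205 (-0.04 ± 0.39, adjusted p = 0.964). The other tested probe set of Edem1 gave 307 and 335 against 241 and 98.2, with both CD8α+ arrays higher (difference 1.06). Edem1 lay above the median of all genes on the 3 other scales, on the median centred one by that other probe set. Herpud1, which organises the HRD1 complex and carries the ERSE-II shown above, stood at 1349 and 1476 against 1310 and 818 (0.45 ± 0.37). Of the derlins, channel components of the same complex, Derl1 had a difference of 0.18 ± 0.29 with its groups apart and Derl2 one of 0.15 ± 0.31 with overlap. Derl3 was above background on 1 of 2 arrays in each group, at 4.17 and 31.1 against 17.4 and 51.9, and no fold is given for it. The segregase Vcp (p97), which pulls proteins out of the membrane, stood at 841 and 966, between the 642 and 1274 of the CD8α− arrays (-0.00 ± 0.44, adjusted p = 0.997). It had the largest p of the 36 genes, and on the 3 other scales it lay 0.23 to 0.29 above the median of all genes.

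The translocon held the gene with the smallest p of the 36, Sec63, and its partner Sec62 with a difference of opposite sign. Of its 7 tested genes, 2 were higher and 0 were lower at an unadjusted p under 0.05, with a median difference of 0.44, from -0.68 to 1.82. Sec63 works with the Sec61 channel and recruits BiP to it. It gave 399 and 441 on the CD8α+ arrays and 125 and 113 on the CD8α− arrays. The 2 arrays of each group were close and the groups far apart, 3.53-fold (1.82 ± 0.30, adjusted p = 0.106, limma). The unadjusted p was under 0.05 in each of the 13 alternative analyses run. The adjusted p passed 0.05 with each array centred on its median (0.0232), under the stricter filter (0.0475) and without CD8α− replicate 1 (0.0417). All 5 tested probe sets of Sec63 had a difference above 0, from 0.65 to 1.82.

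Sec62, which joins Sec63 at the channel, stood at 1594 and 1518 on the CD8α+ arrays and at 2441 and 2530 on the CD8α− arrays, apart but not past the threshold (-0.68 ± 0.29, adjusted p = 0.334). Sec62 was called lower at an unadjusted p under 0.05 (limma) with no filter, the stricter filter, a floor at the highest Bacillus control and the intensity trend. Its 4 tested probe sets were split, from -1.36 to 1.04. The lowest value came from a set with 169 and 170 against 300 and 631. The highest came from a dim set whose groups overlapped, with 45.0 and 42.1 against 48.3 and 9.24. Ssr1, a subunit of the translocon-associated protein complex that sits beside the channel, gave 2017 and 1788 against 1113 and 780. It was 2.04-fold higher in CD8α+ cells (1.03 ± 0.34, adjusted p = 0.254, limma). The call was lost without CD8α+ replicate 1 (difference 0.94) and without CD8α+ replicate 2 (1.11), and with the mean of its 4 probe sets the difference was 0.18. The other subunits were less apart: Ssr2 stood at 601 and 631 against 386 and 531 (0.44 ± 0.33), and Ssr3 at 2241 and 2163 against 2233 and 1105 (0.49 ± 0.44), overlapping. The channel subunits themselves overlapped between the groups in the probe sets that stand for them. Sec61a1, the pore, stood at 881 and 1044 against 605 and 1106 (0.23 ± 0.42), and Sec61b at 2314 on both CD8α+ arrays against 1512 and 2615 (0.22 ± 0.39). Further probe sets of Sec61a1 with differences of 0.63, 1.08 and 1.58 had both CD8α+ arrays higher, and the one with -0.00 overlapped. The set with 1.58 gave 595 and 898 on the CD8α+ arrays and 224 and 267 on the CD8α− arrays.

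**Figure D2:**
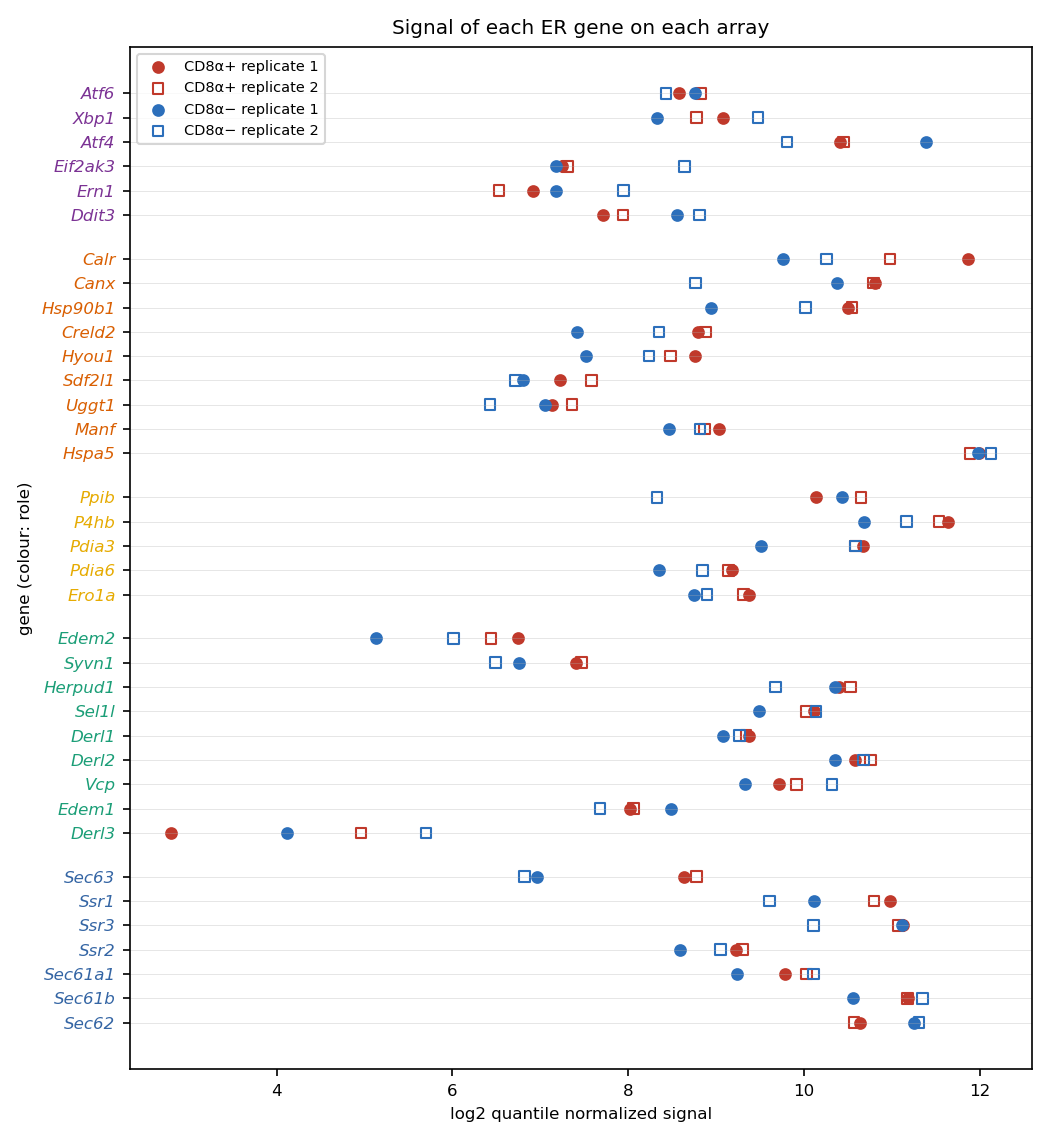
Log2 quantile normalized signal of the 36 tested ER genes on each of the 4 arrays, with genes in the order of their role; red marks CD8α+ and blue CD8α− cells, filled circles replicate 1 and open squares replicate 2. The 2 red marks of a gene mostly lie close together while the blue ones spread, and for Sec63 and Syvn1 both blue marks lie to the left of the red ones.

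The CD8α− arrays differed from each other more than the CD8α+ arrays did. Over the 36 genes the median gap between the CD8α+ arrays was 0.12 on the log2 scale and that between the CD8α− arrays 0.66, beside 0.19 and 0.66 over all genes tested. CD8α− replicate 2 was below replicate 1 in 12 of the 36 genes (33.3%, against 44.4% of all genes), by over 2-fold in 4 of them (11.1%, against 15.8%), Ppib, Canx, Atf4 and Ssr3. Set against CD8α− replicate 1 alone, the members had a median difference of 0.54, and against replicate 2 alone of 0.34, while all genes had -0.01 and -0.11. The difference was above 0 against both arrays in 19 genes (52.8%, against 30.6% of all genes) and below 0 against both in 5 (13.9%, against 35.6%). In the remaining 12 the sign depended on which CD8α− array was used. These 19 are the same genes as those with both CD8α+ arrays above both CD8α− arrays, the 8 chaperones among them. A gene with such groups must lie above each CD8α− array, so this count adds nothing to the earlier one. Xbp1, Atf4, Atf6 and Eif2ak3 were among the 12. The part of RNA quality in these differences was not tested.

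**Figure D3:**
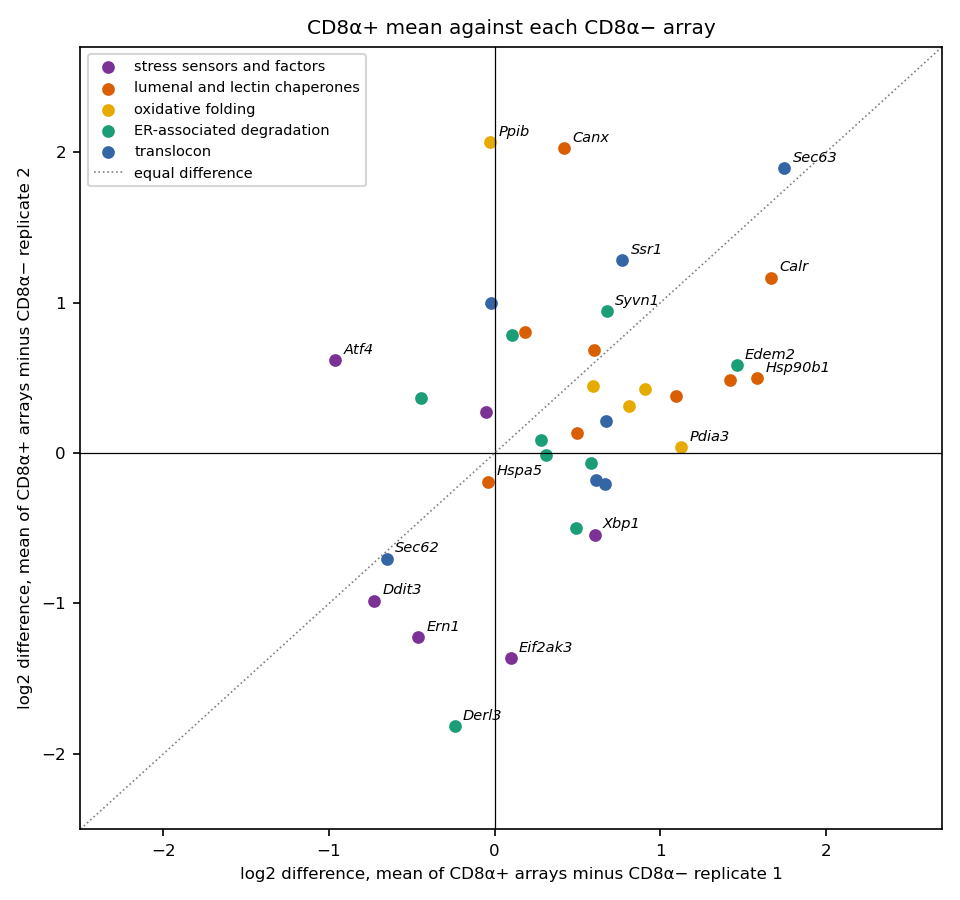
Log2 difference of the mean of the CD8α+ arrays from CD8α− replicate 1 (horizontal) and from CD8α− replicate 2 (vertical), 1 point per ER gene, coloured by role; the dotted line marks equal differences. Sec63, Calr, Ssr1 and Syvn1 lie in the upper right near the line, while Ppib and Canx depend mostly on replicate 2 and Pdia3 and Hsp90b1 on replicate 1.

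The probe sets of a gene did not always agree. Of the 86 tested probe sets, 63 had a difference above 0 and 23 below, with a median of 0.47, and in 43 both CD8α+ arrays were above both CD8α− arrays, against 26.1% of all 22518 probe sets tested. Among 28 genes with several tested probe sets, 13 had all of them above 0, 3 had all of them below 0 (Ddit3, Eif2ak3 and Vcp) and 12 had both signs. The 13 were Calr, Canx, Hsp90b1, Hyou1 and Uggt1 of the chaperones, Pdia3, Pdia6, Ero1a and Ppib of oxidative folding, Herpud1 and Syvn1 of degradation, and Sec63 and Ssr3 of the translocon. Ero1a ranged from 0.52 to 1.68 and Hyou1 from 0.74 to 1.63. Sec61a1, with 5 probe sets, ranged from -0.00 to 1.58, Sel1l from -1.04 to 0.67 and Derl1 from -0.61 to 0.18. The sign of the difference for Sel1l and Derl1 therefore rests on the choice of probe set, and for Sec61a1 its size does.

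**Figure D4:**
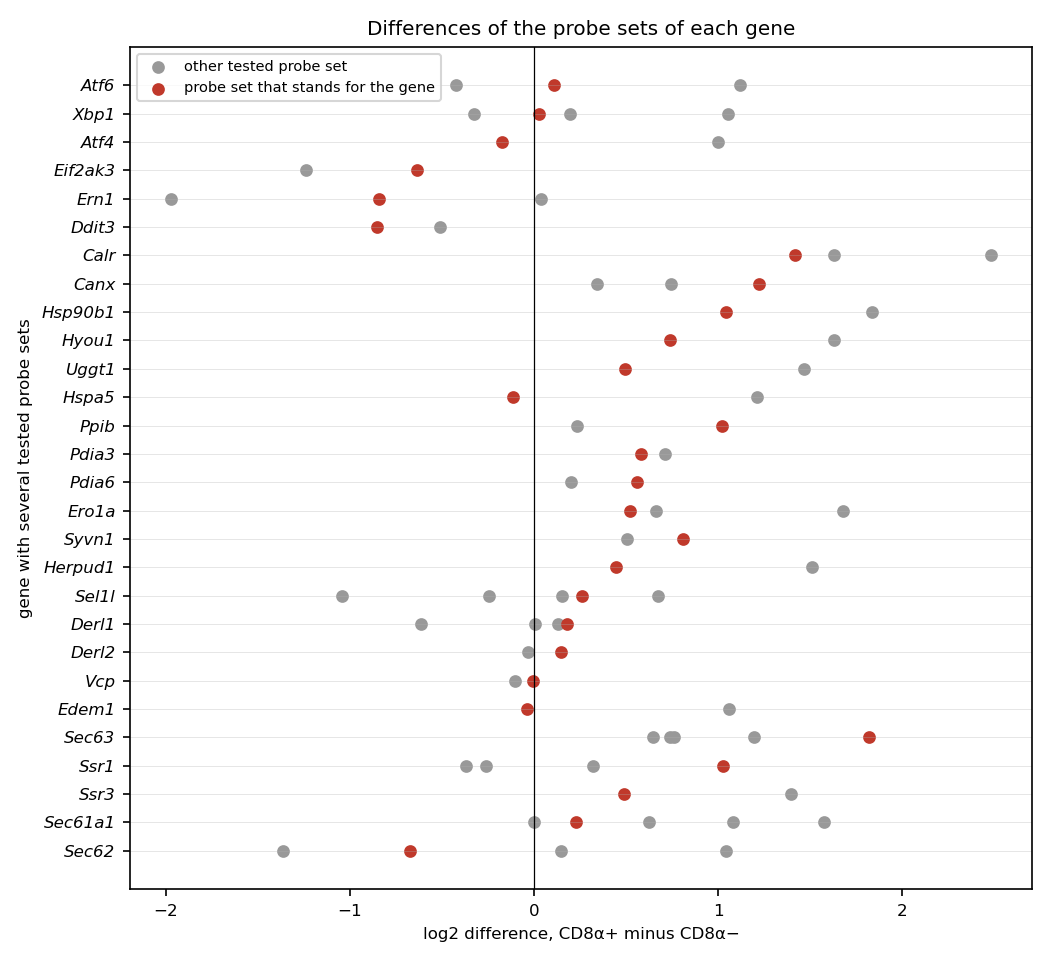
Log2 difference between CD8α+ and CD8α− cells for every tested probe set of the 28 ER genes with several, with the probe set that stands for the gene in red and the others in grey. All points of Sec63, Calr and Hsp90b1 lie to the right of 0, whereas those of Xbp1, Sec62 and Sel1l lie on both sides.

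Genes of the same processes outside the list of 38 were read in the same way. Of 93 further ER genes 84 were tested, and 11 were higher (13.1%, against 7.56% of all genes) and 1 was lower (1.19%, against 9.39%) at an unadjusted p under 0.05, with 0 past the adjusted threshold (limma). Both CD8α+ arrays were above both CD8α− arrays in 38 (45.2%, against 25.6% of all genes), and their median difference was 0.34. BiP co-chaperones, J-domain and related proteins that drive its ATP cycle, had 3 of 7 higher and 0 lower, with a median of 0.68. These were Dnajc10 (1.34 ± 0.35, adjusted p = 0.198), Dnajc1 (1.33 ± 0.37, adjusted p = 0.211) and Dnajc3 (1.58 ± 0.55, adjusted p = 0.272). Dnajc10 stood at 365 and 303 on the CD8α+ arrays and at 110.0 and 158 on the CD8α− arrays.

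Genes of glycosylation and glycan trimming had 3 of 14 higher and 0 lower, a median of 0.58, and a difference above 0 in all 14 on this scale. Rpn1, a ribophorin of the oligosaccharyltransferase that attaches the glycan, gave 291 and 334 on the CD8α+ arrays and 102 and 73.1 on the CD8α− arrays. It was well apart (1.85 ± 0.34, adjusted p = 0.126, limma). The others were Prkcsh, the beta subunit of glucosidase II (1.01 ± 0.29, adjusted p = 0.216), and the mannosidase Man1b1 (1.10 ± 0.36, adjusted p = 0.253). Both act on the glycans that calreticulin, calnexin and the degradation lectins read.

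Further genes of oxidative folding had 2 of 11 higher and 0 lower, with a median of 0.71. Pdia5, another disulfide isomerase, was the most different, at 490 and 483 on the CD8α+ arrays and 14.6 and 53.5 on the CD8α− arrays (4.12 ± 0.69, adjusted p = 0.112, limma). Since only 1 of the 2 CD8α− arrays was above background, its size is not exact. Tmx1, a membrane thioredoxin, had a difference of 0.88 ± 0.33 (adjusted p = 0.291). Further genes of the translocon and of signal processing had 3 of 16 higher and 0 lower, with a median of 0.19. They were Sec11c (1.30 ± 0.37, adjusted p = 0.22) and Spcs3 (0.93 ± 0.30, adjusted p = 0.246) of the signal peptidase, and Tram2 (1.15 ± 0.38, adjusted p = 0.256). Further genes of ER-associated degradation had 0 of 17 past the threshold in either direction and a median of 0.32, and the smallest p was that of Nploc4, a cofactor of p97 (0.76 ± 0.30, adjusted p = 0.308).

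**Figure D5:**
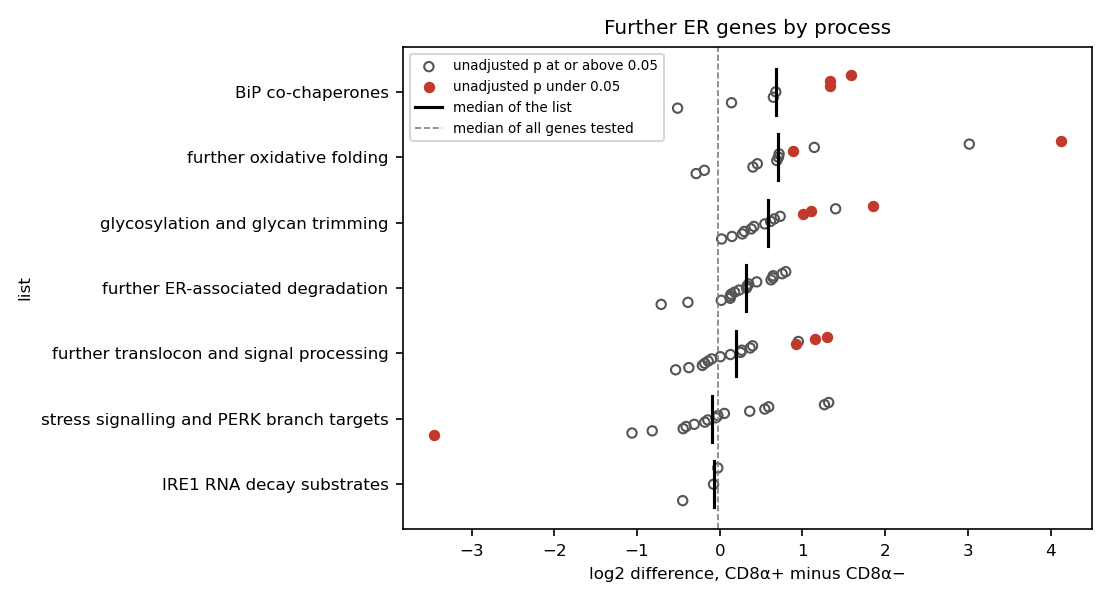
Log2 difference between CD8α+ and CD8α− cells for the 84 tested further ER genes, 1 row per process, with genes at an unadjusted p under 0.05 filled, the median of each process as a black bar and the median of all genes as a dashed line. The 4 processes of folding, glycosylation and degradation in the upper rows have medians from 0.32 to 0.71, and the stress signalling row holds 1 filled point, at -3.45.

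Markers of plasma cells, which are rich in ER, and of other spleen cells were read on the same arrays. Of 6 measured plasma cell markers, 3 or 4 were above background on each CD8α+ array and 5 on each CD8α− array, and their summed normalized signal was 1330 to 1350 in CD8α+ cells and 2580 to 3110 in CD8α− cells. Jchain, which links secreted immunoglobulin, stood at 1175 and 1151 against 2677 and 2034, and Tnfrsf17, the plasma cell receptor BCMA, was not above background on any array. The 9 measured cDC1 markers summed to 10600 to 10900 in CD8α+ cells and 1940 to 2310 in CD8α− cells, with 9 and 6 of them above background on each array. The 7 measured markers of type 2 conventional cells (cDC2) summed to 1360 to 1470 and 4720 to 7030, with 4 to 6 and 6 above background. The 5 general dendritic cell markers summed to 19500 to 19600 and 19300 to 19700, all above background on every array. That sum is mostly Cd74 and H2-Ab1 (6435 to 6955). Cd74 stood at 9781 on all 4 arrays, since quantile normalization gives equal ranks equal values. The sum therefore does not show equal shares of dendritic cells. Flt3 (1.08 ± 0.46) and Zbtb46 (1.35 ± 0.74) had a difference above 0, and Itgax one below (-0.81 ± 0.37). Markers of natural killer cells (5 measured) summed to 319 to 459 and 959 to 2050 and those of neutrophils (3) to 6350 to 6950 and 9220 to 12700. Those of plasmacytoid dendritic cells (7) summed to 1030 to 1190 and 1750 to 2480. That sum was mostly Tcf4 (650 and 762 against 1198 and 1808). Tcf4, Bst2, Spib and Klk1 had a difference below 0, and Ccr9 (2.21), Siglech (0.66) and Ly6d (0.05) one above. Markers of red pulp macrophages and monocytes (6) summed to 1000 to 1120 and 1460 to 1920. Of these, Vcam1 had a difference above 0 (2.48 ± 0.56), and Adgre1, Ccr2, Hmox1 and Spic one below. B cell markers (6) summed to 250 to 300 and 273 to 305, T cell markers (4) to 405 to 596 and 375 to 432, and the 2 erythroid markers were not above background on any array. The part of any of these cells in the ER genes' differences was not tested.

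Read by their upstream sequence, the 8 tested genes with an ERSE had a median difference of 0.88 and the 22 tested genes with a window but no match 0.35. Both CD8α+ arrays were above both CD8α− arrays in 6 of the 8 and in 9 of the 22, and in 25.6% of all genes tested. The exceptions among the 8 were Hspa5 and Derl3, with overlapping groups. Motif and role overlap here. Calr, Canx, Creld2, Hsp90b1 and Hspa5 are chaperones, and no stress sensor or factor with a window had an ERSE. Sdf2l1 and Uggt1, chaperones with a window but no match, also had both CD8α+ arrays higher. The part of role in the contrast was not tested. Sec63, Ssr1 and Ddit3, 3 of the 5 genes with the smallest p, had no ERSE in their window, and Herpud1 was the 1 gene with the ERSE-II. The core of the unfolded protein response element bound by XBP1, TGACGTGG, was found upstream of Vcp alone among the 32 genes (3.12%, against 0.563% of all windows). TTGCATCA, the core of the element read by the PERK branch, was found upstream of Herpud1 alone (3.12%, against 0.791%). A plain CCAAT box, which every ERSE contains, was found in 24 of the 32 (75%, against 33.8%).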

How the data were processed

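Gene expression was measured on Affymetrix mouse whole-genome arrays, as the design text of the series states. The authors deposited 1 linear intensity per probe set and array, made with MAS5 per the submitters' processing notes, and its scaling target is not stated in these sources. The series' design text and the labels' protocols describe the RNA preparation differently. Median deposited signals ran from 17.4 to 35.1, so log2 intensities were quantile normalized and raised to a floor of 6.99. Of 45101 probe sets, 64 controls were left out, and 34945 had 1 gene symbol, 932 several and 9160 none. Genes with a mean signal of at least 23.0, the median, were tested, each by its brightest probe set. Probe sets whose name ends in _x_at were used only for genes with no other, so Calr was not read by its brightest set. The comparison used lmFit and eBayes of limma 3.58.1 (R 4.3.3) without trend; tests were two-sided and p-values were adjusted over all genes by Benjamini-Hochberg, with 2 residual and 2.48 prior degrees of freedom. An exact permutation test of 2 arrays against 2 cannot reach 0.05. Background on an array was its highest Bacillus control, 21.8 to 34.5 after normalization. The fit was tested on simulated data with equal spread in both groups, which is no check of it under the unequal spread seen here. The members and gene lists were chosen with earlier results of these data known. Every member but Sec61g has a value, with signals array by array for the 5 smallest and 3 largest p, the stress sensors, Hspa5, Calr and Pdia3. From the further lists the smallest p of each and all under 0.05 unadjusted are named, and Cd8a as the label check. Alternatives were other scalings, filters and floors, an intensity trend, a replicate block, the mean of a gene's probe sets and each array left out.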

Additional observations from a re-analysis of the deposited data

How the results depend on the processing

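The median difference of the members, 0.45, kept its sign in all 13 alternatives (0.34 to 0.72, given relative to the median of all genes where the scale was changed, as are all differences below on those scales). Members past the adjusted threshold numbered 2 with each array centred on its median, 1 under the stricter filter and 0 to 4 with 1 array left out. Members higher at an unadjusted p under 0.05, 4 in the analysis reported, were 13 as deposited, 26 median centred, 7 with an intensity trend, 7 with the mean of the probe sets and 1 to 14 with 1 array left out. Members lower, 1 as reported, were 0 on the 3 other scales (2.39% to 17.3% of all genes) and 2 with no filter (8.38%), with the stricter filter (11.4%), with a floor at the highest Bacillus control (9.86%) and with the trend (9.59%). With 1 array left out they were 0 to 4 (3.74% to 22.6%). Members with groups apart, 22 (61.1%, against 53.9% of all genes), were 24 to 35 with 1 array left out, where fewer values can overlap. The 35 (97.2%) came without CD8α− replicate 1, where 89.4% of all genes were apart, and the 24 (66.7%) without CD8α+ replicate 2, where 67.2% were. Further ER genes at an unadjusted p under 0.05, 12 as reported, were 23 as deposited and 52 median centred. They were 2 to 42 with 1 array left out. Of all genes, 7.56% were called higher and 9.39% lower as reported. These shares were 11.3% and 2.39% as deposited, and 30.6% and 4.57% median centred. The 42 came without CD8α− replicate 1, where 23.6% of all genes were called higher and 22.6% lower. Genes past the adjusted threshold over the whole table, 0 as reported, were 152 scaled to the trimmed mean, 503 median centred, 157 under the stricter filter, 85 with the trend and 0 to 2057 with 1 array left out.

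With the replicate number as a block, the members had 2 higher calls (8.33% of all genes) and 0 lower, and 147 genes in all (1.4%) passed the adjusted threshold. The unadjusted calls of Ssr1, Ddit3 and Syvn1 were not made in that fit. Deviations of same-numbered arrays from their group means correlated at 0.02 over 10532 genes, and the numbers were not taken to pair the samples.

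Signs turned for Atf4 (0.10, 0.14 and 0.085), Edem1 (0.26, 0.31 and 1.27) and Vcp (0.25, 0.29 and 0.23) as deposited, scaled to the trimmed mean and median centred. With the mean of the probe sets they turned for Atf4 (0.41), Hspa5 (0.55), Edem1 (0.51), Sel1l (-0.04) and Derl1 (-0.074). With 1 array left out, the differences ranged from -0.54 to 0.60 for Xbp1, -2.11 to 0.05 for Derl3, -0.50 to 0.49 for Vcp, -0.054 to 0.28 for Atf6, -0.96 to 0.62 for Atf4, -0.44 to 0.36 for Edem1, -0.064 to 0.58 for Sel1l, -0.015 to 0.31 for Derl2, -0.20 to 0.67 for Sec61a1, -0.18 to 0.61 for Sec61b, -1.36 to 0.10 for Eif2ak3, -0.02 to 0.99 for Ssr3 and -0.029 to 2.07 for Ppib. The median centred value of Edem1 came from its other tested probe set, the brighter one on that scale. The cause of the other changes was not tested. Signals near background, such as those of Derl3 and Pdia4, limit what can be said of those genes.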

Other observations

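Further genes of stress signalling, among them targets of the PERK branch, had differences on both sides of 0. Of 16 tested genes of stress signalling and of the PERK branch, 0 were higher in CD8α+ cells at an unadjusted p under 0.05 (limma), against 7.56% of all genes. At the same threshold 1 was lower, against 9.39%, and the median difference was -0.10. The 1 was Cebpb, a leucine zipper factor with many roles in myeloid cells, at 23.6 and 32.7 on the CD8α+ arrays and 248 and 371 on the CD8α− arrays (-3.45 ± 0.38, adjusted p = 0.0895, limma). Only 1 of its 2 CD8α+ arrays was above background, so its size is not exact. No other gene of the list was called. Ppp1r15a, which restores translation, had a difference of -0.82 ± 0.43 (adjusted p = 0.406) and Sesn2 one of -1.06 ± 0.66 (adjusted p = 0.463). Chac1 had one of -0.44 ± 0.46 (adjusted p = 0.648) and Atf3 one of 0.06 ± 0.35 (adjusted p = 0.942). The smallest p after that of Cebpb was that of Nfe2l2, higher on both CD8α+ arrays (1.27 ± 0.54, adjusted p = 0.333). Both CD8α+ arrays lay above both CD8α− arrays in 5 of the 16 (31.2%, against 25.6% of all genes). They lay below them in 4 (25%, against 28.3%).

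Of 4 transcripts that IRE1 is known to cleave, 3 were tested. Itgb2, the beta chain of leukocyte integrins, stood at 1080 and 1134 on the CD8α+ arrays and at 1533 and 1486 on the CD8α− arrays, apart but not past the threshold (-0.45 ± 0.29, adjusted p = 0.476, limma). Ergic3, a cargo receptor, had a difference of -0.07 ± 0.32, and Tapbp, the tapasin of the MHC class I loading complex, one of -0.02 ± 0.32. None of the 3 passed the unadjusted threshold in either direction.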
